A study of Oryza sativa with 12 samples.

Results

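Oryza sativa, the Asian cultivated rice, is grown as 2 main subspecies, and the normal transcriptome of a cultivar of each was compared here: 93-11, an Indica cultivar, against Nip (Nipponbare), a Japonica cultivar. The comparison used 3 normal libraries of 93-11 and 3 normal libraries of Nip, out of 12 libraries in the series. All 6 came from aerial parts of seedlings aged 3 weeks, which had been raised on Yoshida solution with 10 h of light and 14 h of darkness per day at 800 μmol m-2 s-1. None of them had been heated. The other 6 libraries, 3 of each cultivar, came from heat stress (HS) seedlings held at 45 °C for 36 h in humid air and dim light. They are used only to ask whether a cultivar difference was also seen in other plants, and whether it changed between treatments. The unit throughout is FPKM, a level in which sequenced fragments are divided by gene length and by the sequencing depth of the library. Genes were taken by identifier. Of 33780 identifiers listed for either cultivar, 23399 are LOC_Os identifiers listed for both, and the 18146 of these that reached 1 FPKM in 3 or more of the 6 normal libraries were tested.

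Indica and Japonica separated long ago and were bred apart, and their genomes differ by single bases and also by genes that are present, absent, duplicated or moved. Rice genes often lie in tandem arrays of similar copies, and such arrays are among the parts of the genome that differ most between the subspecies. A difference in the RNA level of a gene between cultivars can therefore come with a change in how the gene is regulated, or with a change in which copy of it the genome holds. The reads of each cultivar had been aligned to its own genome, so an identifier stands for a gene model in each genome, and how the identifiers were carried from one to the other is not given in the sources used here. No table used here pairs LOC_Os identifiers with names or functions, so only a few genes are given by identifier, and a function is stated only for LOC_Os02g35500, which the paper describes as a glyoxylate reductase. The tissue could not be checked against leaf markers for the same reason. The 2 digits after "Os" in an identifier are its chromosome, and the last 5 run in order along it.

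The libraries of a cultivar resembled each other far more than those of the other cultivar. Across the genes tested, Pearson's r of log2(FPKM + 1) was between 0.9919 and 0.9931 for the 3 pairs of 93-11 libraries, between 0.9909 and 0.9914 for the 3 pairs of Nip libraries, and between 0.8324 and 0.8361 for the 9 pairs across cultivars. These are correlations across genes, which are not independent replicates. The typical replicate spread was small, with a median SD of log2(FPKM + 1) of 0.0846 in 93-11 and 0.0823 in Nip, against a median difference between cultivars of 0.542 in size. The FPKM values of a library did not add up to the same total in both cultivars. They summed to 596516 ± 18092 in 93-11 and 790347 ± 7065 in Nip over all listed identifiers (SD, n = 3 each), a ratio of 0.755. Every 93-11 library lay below every Nip library (p = 0.1, two-sided exact permutation test, the smallest p that 3 against 3 libraries allow). Most single genes had the same direction. The fitted value was lower in 93-11 for 12475 of 18146 genes (68.7%), the median log2 difference of 93-11 minus Nip was -0.33, and 10167 genes (56.0%) lay within 0.5 of that median.

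Genes were called with limma on log2(FPKM + 1) where the log2 difference was at least 1 in size and the p adjusted by Benjamini-Hochberg was under 0.01. In 93-11, 1354 genes were higher (7.46% of those tested) and 2480 were lower (13.7%), so that 3834 genes (21.1%) were called. An adjusted p under 0.01 with no size asked was reached by 13018 genes (71.7%), and the 3 libraries of 93-11 did not overlap those of Nip for 14803 genes (81.6%). The balance of the calls depended on the scaling of the libraries. As deposited, 35.3% of the called genes were higher in 93-11. That share was 60.3% (2362 higher, 1553 lower) with every library rescaled to a sum of 1000000, 58.4% (2072 higher, 1476 lower) with median-ratio scaling and 56.1% (1978 higher, 1545 lower) with quantile normalization, which shifted the median difference by 0.356, 0.324 and 0.288. Under all 4 scalings, the same direction was called for 2799 genes (15.4%). These were all 1354 genes called higher, and 1445 of the 2480 called lower. The 3 rescalings all raise 93-11 relative to Nip, so they could only test the lower calls. Below, calls under all 4 scalings are given for expression level, chromosome and neighbours. The comparison with HS rests on the calls as deposited.

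**Figure D1:**
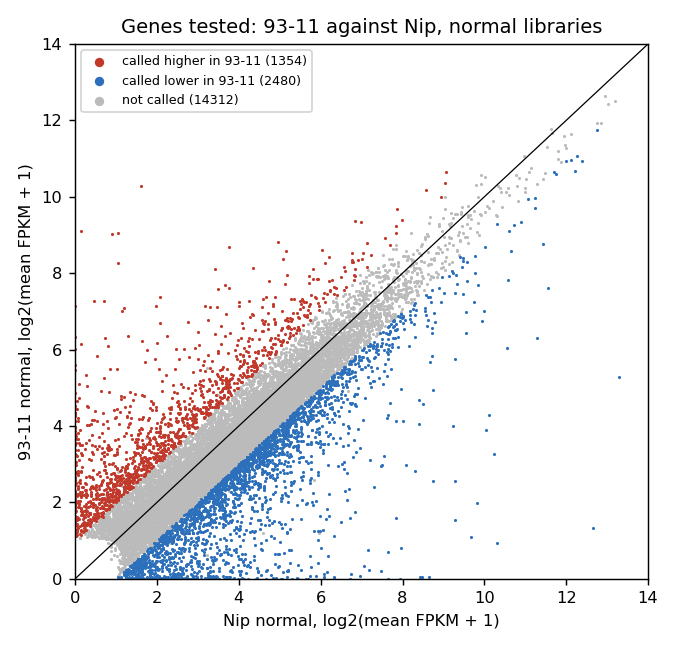
Mean expression of the 18146 genes tested, as log2(mean FPKM + 1), in the 3 normal libraries of 93-11 (vertical) and of Nip (horizontal). Points are genes, red where called higher in 93-11 (1354), blue where called lower (2480) and grey where not called, and the line marks equal values. The cloud lies below the line, as the median log2 difference of -0.33 describes, and single genes depart from it in both directions at all levels.

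Most called differences were moderate. The median log2 difference was 1.5 among the genes called higher and -1.42 among those called lower. A difference of at least 2 in size was found for 366 genes higher in 93-11 and 636 lower, at least 4 for 53 and 110, and at least 6 for 10 and 29. At 4 and above, every one of these calls was also made under all 4 scalings. Part of the calls follow from how genes were admitted. Of the genes tested, 574 reached 1 FPKM in all 3 libraries of 93-11 and in none of Nip, and 804 had the reverse pattern, and these had to differ to some extent. Among the 15691 genes that reached 1 FPKM in each of the 6 libraries, 835 were higher and 1772 lower in 93-11, which is 16.6%.

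A smaller set was expressed in one cultivar and nearly silent in the other. At least 10 FPKM in each 93-11 library with less than 1 in each Nip library was found for 59 genes, and the reverse for 118, and each set had members on all 12 chromosomes. At 100 FPKM or more the numbers were 4 and 13. Values of exactly 0 in all 3 normal libraries were listed in 93-11 for 61 of the genes tested, whose mean in Nip was 1.08 to 201 FPKM with a median of 6.13, and in Nip for 43 genes, whose mean in 93-11 was 1.20 to 63.4 FPKM with a median of 4.46. The files list no gene that is at 0 in all 6 libraries of its cultivar. Each of these genes therefore had a value above 0 in at least 1 HS library, and genes without any reads in one cultivar are outside this comparison. LOC_Os identifiers listed for one cultivar alone numbered 4725 for 93-11 and 3483 for Nip, of which 1650 and 1284 reached 1 FPKM in each normal library of that cultivar.

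The largest rise in 93-11 was that of LOC_Os07g39360 on chromosome 7. Its FPKM was 544, 536 and 575 in 93-11, against 0.0744, 0.0800 and 0.137 in Nip, so that it was strongly expressed in one cultivar and close to 0 in the other. The log2 difference was 8.98 (standard error 0.0511, adjusted p = 6.087e-13, limma). The next tested identifier before it, LOC_Os07g39350, had the opposite pattern, and was singled out after its values were seen. Its FPKM was 0.0527, 0 and 0.0625 in 93-11, against 350, 345 and 377 in Nip (log2 difference -8.43, standard error 0.0574, adjusted p = 1.144e-12, limma). Each of these identifiers was admitted through a single cultivar, so some difference was set by the filter. Both were also picked by their values, so the p-values are descriptive only. Summed over both identifiers, the FPKM was 551 ± 20.5 in 93-11 and 357 ± 17.6 in Nip (SD, n = 3 each), a log2 difference of 0.62. The pair thus differed far less as a sum than either identifier did alone. Of 3 neighbouring pairs with opposite differences of at least 4 in size, it was the one whose sums were within 1 of each other on the log2 scale. LOC_Os03g17670 and LOC_Os03g17680 summed to 19.4 ± 0.526 FPKM in 93-11 and 62.5 ± 3.50 FPKM in Nip (log2 difference -1.63). LOC_Os10g41980 and LOC_Os10g42020 differed by -3.47 as a sum. Whether the identifiers stand for the same copies in both genomes was not tested.

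LOC_Os08g03590 on chromosome 8 came next among the genes higher in 93-11. Its libraries were uneven in 93-11, with 1262, 856 and 1587 FPKM, against 1.87, 1.96 and 2.35 FPKM in Nip, and its log2 difference was 8.62 (standard error 0.186, adjusted p = 1.02e-09, limma). In spite of that spread the lowest 93-11 library stood far above the highest Nip library.

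Among genes lower in 93-11, the largest difference was that of LOC_Os11g47980 on chromosome 11. It had 1.51, 1.48 and 1.59 FPKM in 93-11, against 6347, 6618 and 6291 FPKM in Nip. The mean FPKM was 4210-fold lower in 93-11, while the gene stood among the most abundant of Nip (difference of log2(FPKM + 1) -11.31, which understates the FPKM fold of genes near 0, standard error 0.0367, adjusted p = 2.105e-14, limma). LOC_Os04g56405 on chromosome 4 was 1370-fold lower in mean FPKM, at 0.741, 1.11 and 0.923 FPKM in 93-11, against 1279, 1278 and 1252 FPKM in Nip (difference of log2(FPKM + 1) -9.37, standard error 0.0659, adjusted p = 1.144e-12, limma). It reached 1 FPKM in a single 93-11 library, so it was admitted through Nip and some difference was set by the filter. Like LOC_Os08g03590 and LOC_Os11g47980, it was picked by the size of its difference, so these p-values are descriptive only.

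The paper's example gene was close between the cultivars before heat. LOC_Os02g35500 had 51.1, 53.1 and 55.2 FPKM in 93-11, against 67.6, 66.3 and 61.8 FPKM in Nip. All 93-11 libraries lay below all Nip libraries, yet the log2 difference of -0.29 (standard error 0.0486, adjusted p = 0.0004575, limma) fell short of the size at which genes were called, and it turned to 0.11 with libraries rescaled to a sum of 1000000 and to 0.07 with median-ratio scaling. The size of the difference exceeded that of 26.9% of the genes tested.

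**Figure D2:**
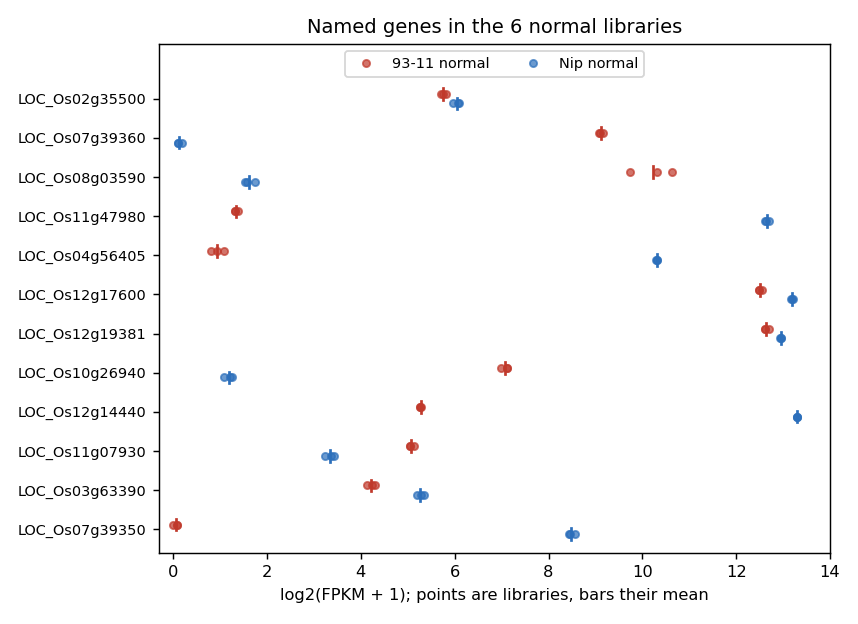
Expression of the genes given by identifier in the 6 normal libraries, as log2(FPKM + 1). Points are libraries, red for 93-11 and blue for Nip, and short bars are the means of 3 libraries. The neighbours LOC_Os07g39360 and LOC_Os07g39350 show opposite patterns, and in each gene the libraries of a cultivar lie together, most widely apart in LOC_Os08g03590 of 93-11.

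The 60 genes with a mean of 1000 FPKM or more over the 6 libraries had lower values in 93-11 beyond the shift of all genes. The class below them did not stand apart from it. The median log2 difference was -0.11 at a mean of under 2 FPKM over the 6 libraries, between -0.26 and -0.40 from 2 to 1000 FPKM, and -0.72 among the 60 genes of 1000 FPKM or more, a difference of -0.39 from the median of all genes. In that top class 52 of 60 genes had a lower value in 93-11, and 19 were called lower against 1 called higher. Under all 4 scalings, 7 of the 60 (11.7%) were called lower and 1 (1.67%) higher. The 933 genes of 100 to 1000 FPKM had a median of -0.34, close to the -0.33 of all genes, with 9.65% lower and 8.15% higher under all 4 scalings. The class under 2 FPKM and that of 2 to 5 FPKM had more higher than lower calls under all 4 scalings (10.1% against 8.45%, and 9.53% against 9.30%), and these low classes hold genes that were admitted through one cultivar. The cultivars shared 71 of their 100 most abundant tested genes and 37 of their 50 most abundant. The share of abundant genes with a lower value in 93-11 depended on which cultivar ranked them. It was 91 of the 100 most abundant in Nip and 63 of the 100 most abundant in 93-11, against 68.7% of all genes. Among the 50 most abundant it was 47 and 38. The classes above use a mean over both cultivars, so genes high in a single cultivar can enter the top class.

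The most abundant genes that were called under none of the 4 scalings were LOC_Os12g17600 and LOC_Os12g19381, both on chromosome 12. LOC_Os12g17600 had 5757, 5712 and 6003 FPKM in 93-11, against 9328, 9167 and 9479 FPKM in Nip, with a log2 difference of -0.68 (standard error 0.0428, adjusted p = 7.719e-07, limma). The difference was -0.27 with a sum of 1000000 and -0.31 with median-ratio scaling, and with quantile normalization, which gives genes of equal rank the same value, it vanished (adjusted p = 1, limma). LOC_Os12g19381 had 6284, 6240 and 6643 FPKM in 93-11, against 7951, 7860 and 7906 FPKM in Nip. Its log2 difference of -0.31 (standard error 0.0435, adjusted p = 0.0001566, limma) turned to 0.10 with a sum of 1000000, to 0.48 with quantile normalization and to 0.06 with median-ratio scaling, so its direction rests on the scaling.

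**Figure D3:**
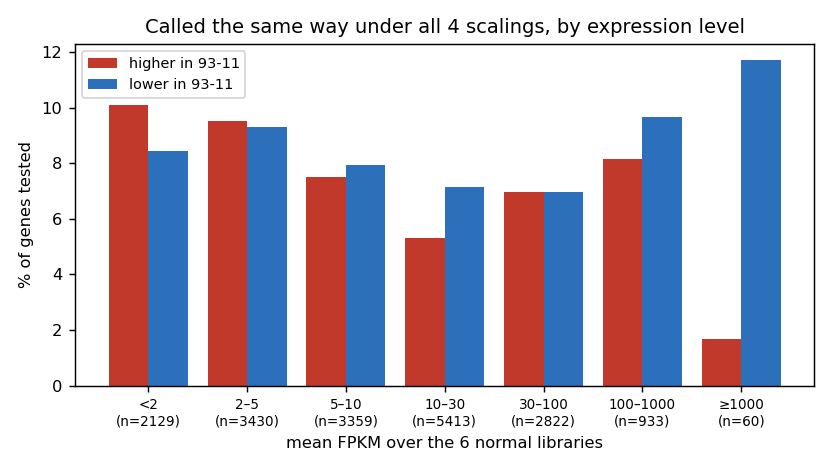
Percent of the genes tested that were called the same way under all 4 scalings, by mean FPKM over the 6 normal libraries, with red bars for higher and blue bars for lower in 93-11. The class of 1000 FPKM or more (60 genes) has 1.67% higher and 11.7% lower.

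The called genes were spread over all 12 chromosomes but not evenly. As deposited, the share of genes called ranged from 17.2% of 2180 on chromosome 2 to 28.2% of 884 on chromosome 11, against 21.1% over all genes. Chromosome 11 had 82 genes higher and 167 lower in 93-11, 9.28% and 18.9% of its genes. Under all 4 scalings the share was again lowest on chromosome 2, at 12.4%, and highest on chromosome 11, at 22.7%, followed by chromosome 9 at 19.8% and chromosome 10 at 18.6%, against 15.4% over all genes. Chromosomes 1 to 7 all lay between 12.4% and 15.1%. In 356 stretches of 50 consecutive tested identifiers, the number called under all 4 scalings was 1 to 18 with a median of 7, and 4 of the 10 stretches with 15 or more were on chromosome 11. The highest, with 6 genes higher and 12 lower in 93-11, ran from LOC_Os11g19764 to LOC_Os11g26350. These shares are descriptions and were not tested.

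**Figure D4:**
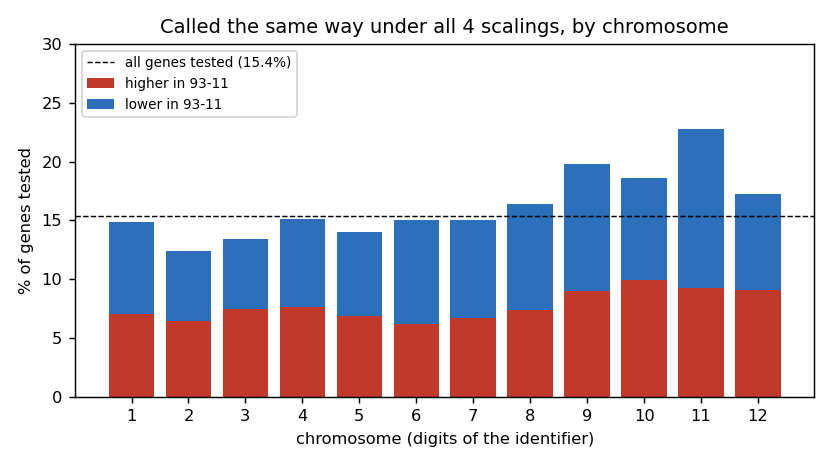
Percent of the genes tested on each chromosome that were called the same way under all 4 scalings, stacked as higher (red) and lower (blue) in 93-11. The dashed line is the share over all genes, 15.4%, which chromosomes 8 to 12 exceed, with 22.7% on chromosome 11.

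After genes lower in 93-11, the next tested identifier was also lower more often than among all genes. The other neighbour shares lay close to those of all genes. These shares were not tested, and they do not allow for the uneven shares of the chromosomes. Under all 4 scalings, the next tested identifier was also higher after 9.24% of the genes higher in 93-11, where 7.47% of all next identifiers were higher. It was also lower after 12.2% of the genes lower in 93-11, where 7.96% of all were lower. The next identifier had the opposite call after 9.46% of the genes higher in 93-11, where 7.96% of all were lower, and after 8.18% of the genes lower in 93-11, where 7.47% of all were higher. After higher genes, opposite calls were thus as frequent as alike ones. Of these 246 opposite pairs, 3 had both genes differing by at least 4 in size, LOC_Os07g39350 and LOC_Os07g39360 among them. Runs were short. The longest run of genes lower in 93-11 as deposited held 6 tested identifiers on chromosome 12, from LOC_Os12g02320 to LOC_Os12g02380, with log2 differences from -2.90 to -1. LOC_Os12g02320 had 850, 792 and 850 FPKM in 93-11, against 2397, 2366 and 2468 FPKM in Nip, and LOC_Os12g02380 had 8.03, 6.32 and 6.82 FPKM in 93-11, against 17.9, 18.5 and 18.0 FPKM in Nip. All 6 were also called lower in 93-11 in the HS libraries. This run lies at the beginning of chromosome 12, a region known to be a recent duplicate of the beginning of chromosome 11, where reads can match both copies, so the values of single genes there are uncertain. Under all 4 scalings the longest run of lower genes held 5 identifiers on chromosome 6, from LOC_Os06g08560 to LOC_Os06g08600, with log2 differences from -3.59 to -1.30, and all 5 were also called lower in the HS libraries. Its first identifier, LOC_Os06g08560, had 1.38, 1.54 and 1.39 FPKM in 93-11, against 4.25, 5.09 and 5.75 FPKM in Nip, and its last, LOC_Os06g08600, had 0.957, 0.529 and 0.793 FPKM in 93-11, against 3.39, 3.57 and 3.44 FPKM in Nip. No library of 93-11 overlapped Nip at either end, which also held for 81.6% of all genes tested and is little more than the calls already state. The longest runs of higher genes held 4, from LOC_Os11g10160 to LOC_Os11g10280 on chromosome 11, of which 3 were called higher in the HS libraries too, and from LOC_Os12g24580 to LOC_Os12g25120 on chromosome 12, of which 1 was. The first of these runs was of low expression. LOC_Os11g10160 had 3.95, 4.87 and 4.12 FPKM in 93-11, against 0, 0.453 and 0 FPKM in Nip, and LOC_Os11g10280 had 1.13, 1.17 and 1.20 FPKM in 93-11, against 0, 0.0354 and 0.0326 FPKM in Nip. The other held more abundant genes, with 30.7, 34.0 and 35.7 FPKM of LOC_Os12g24580 in 93-11, against 10.5, 12.1 and 13.6 FPKM in Nip, and 86.8, 92.0 and 101 FPKM of LOC_Os12g25120 in 93-11, against 34.3, 31.3 and 31.7 FPKM in Nip.

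Whether the cultivar difference of a gene was also seen in other plants was asked in the HS libraries, which share no library with the normal comparison but differ from it in treatment. In a fit of these libraries over the same genes, 7789 genes (42.9%) were called, 2808 higher and 4981 lower in 93-11, with a median log2 difference of -0.30. Of the 3834 genes called in normal growth, 2001 (52.2%) were called in the same direction in HS, which is 25.7% of the HS calls, and 301 in the opposite one. Of the genes higher in 93-11 in normal growth, 46.2% were higher in HS too, where 15.5% of all genes were, and of those lower, 55.4% were lower in HS, where 27.4% of all genes were. These are calls on the deposited values. The lower genes include 1035 not called under all 4 scalings, so the shares of higher and lower genes are not directly comparable. With the other scalings, 1795 to 1899 genes were called alike. Larger differences were called alike in HS more often, up to a size of 4. With a log2 difference of at least 2 in size, 69.9% of 366 higher and 81.0% of 636 lower genes were called alike in HS, and at least 4 in size, 48 of 53 and 104 of 110. At a size of at least 6 it was 10 of 10 higher and 26 of 29 lower genes (89.7%), with 1 of the lower genes called in the opposite direction. By limma's interaction term, 28 of 53 and 54 of 110 of these differences changed at 4 or more, and 8 of 10 and 23 of 29 at 6 or more. That term was called for 40.5% of all genes tested and for 49% of those called in normal growth. Of the genes with at least 10 FPKM in one cultivar and less than 1 in the other, 57 of the 59 expressed in 93-11 and 109 of the 118 expressed in Nip were called alike, and none in the opposite direction.

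The change of the cultivar difference between treatments was tested by the interaction term of limma over 12 libraries. It reached an adjusted p under 0.01 and a size of at least 1 for 7347 genes (40.5%), and for 1877 (49%) of the 3834 called in normal growth. The number of genes was 6381 with quantile normalization, 7494 with median-ratio scaling and 9232 with a sum of 1000000. With a pseudocount of 0.1 it was 8564. The difference that changed most among genes higher in 93-11 was that of LOC_Os10g26940 on chromosome 10. In normal growth it had 126, 138 and 138 FPKM in 93-11, against 1.38, 1.33 and 1.12 FPKM in Nip (log2 difference 5.89, standard error 0.0671, adjusted p = 2.36e-11, limma). In HS it had 62.5, 65.6 and 63.4 FPKM in 93-11, against 620, 608 and 609 FPKM in Nip, so the order of the cultivars was turned round. Among genes lower in 93-11 it was LOC_Os12g14440 on chromosome 12, the most abundant gene tested in Nip. It had 37.6, 37.6 and 37.9 FPKM in 93-11 in normal growth, against 10075, 10127 and 10109 FPKM in Nip (log2 difference -8.03, standard error 0.0302, adjusted p = 3.701e-14, limma). In HS it had 13.7, 11.5 and 8.77 FPKM in 93-11, against 3.66, 5.15 and 8.71 FPKM in Nip, with a log2 difference of 0.90 (standard error 0.263, adjusted p = 0.01237, limma), which was not called.

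At the other end stood genes whose cultivar difference of log2(FPKM + 1) was nearly the same size in both treatments. LOC_Os11g07930 on chromosome 11 had 32.1, 34.0 and 32.2 FPKM in 93-11, against 9.24, 8.38 and 9.74 FPKM in Nip, a log2 difference of 1.74 (standard error 0.0639, adjusted p = 2.47e-08, limma). In HS its level was lower in both, at 4.37, 5.25 and 4.59 FPKM in 93-11, against 0.799, 0.637 and 0.721 FPKM in Nip, and the log2 difference was again 1.74. The Nip values in HS lie under the pseudocount of 1, and the FPKM fold was not the same. For this gene, mean FPKM of Nip over 93-11 was 0.278 in normal growth and 0.152 in HS. LOC_Os03g63390 on chromosome 3 had 18.8, 16.5 and 17.8 FPKM in 93-11, against 35.6, 37.8 and 39.6 FPKM in Nip. Its log2 difference was -1.05 in both treatments (standard error 0.0617, adjusted p = 4.982e-07, limma, in normal growth). That call was lost under each of the 3 other scalings, with log2 differences from -0.72 to -0.67.

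**Figure D5:**
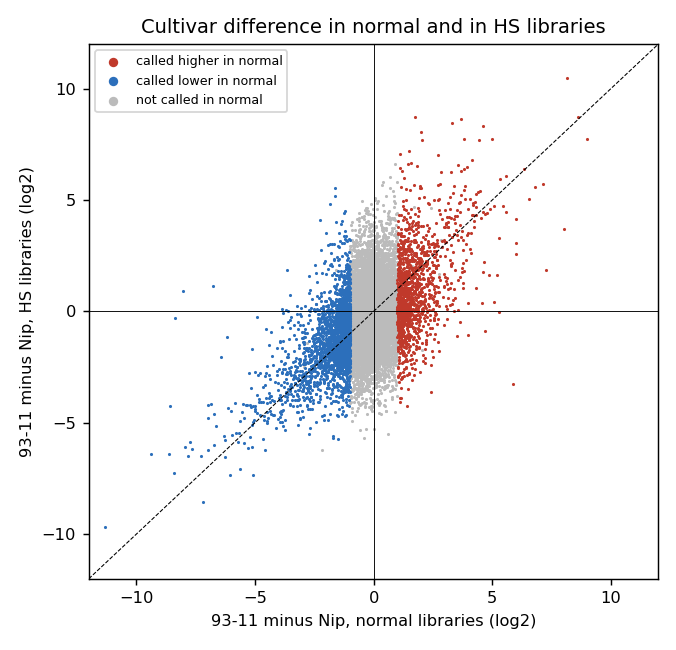
The log2 difference of 93-11 minus Nip in the HS libraries (vertical) against that in the normal libraries (horizontal) for 18146 genes, red where called higher in 93-11 in normal growth, blue where called lower and grey where not called. The dashed line marks equal differences. Of the genes called in normal growth, 2001 were called in the same direction in HS and 301 in the opposite one. Calls are those of the deposited values.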

How the data were processed

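Total RNA was enriched for poly(A) RNA, made into stranded libraries and read on an Illumina HiSeq X-ten. The authors deposited 1 FPKM value per gene and library. The paper's methods name STAR for alignment to the genome of each cultivar and featureCounts and DESeq2 for calls, while the submitters' processing notes name HISAT2 2.0.4, StringTie 1.3.4d and DESeq2, so the tool behind the FPKM values is uncertain; builds are not given in the sources used here. Counts of reads were not used here, so no counting error is given and precision rests on 3 replicates. The paper calls the replicates biological. The most common ratio of low FPKM values put the depth of 93-11 replicates 2 and 3 at 0.883 and 0.824 times that of replicate 1. For Nip replicates 2 and 3 it gave 0.920 and 1.07 times. That ratio was held by only 2.9% and 2.6% of the low 93-11 genes, and by 13.1% and 3.27% of the low Nip genes. Apart from Nip replicate 2, these depths are therefore rough. Between cultivars it was held by 1.18% of the low genes and was not usable.

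FPKM + 1 was log2-transformed without further scaling and fitted with limma 3.58.1 (R 4.3.3, trended prior); summaries used Python 3.11.15. In simulated data for 93-11 minus Nip over 18146 genes, 198 of 200 genes changed by a log2 of 2 were recovered, with 1 wrong call. These counts describe only the recovery of planted changes of that size. They do not show how well smaller differences were called. The changes were planted only in genes above a minimum level in Nip, so recovery among genes of low expression was not tested. Nor do they show how the shift of all genes between the cultivars, on which many lower calls depend, affects wrong calls. Genes given by identifier are LOC_Os02g35500, the 2 largest differences per direction with a mean FPKM of at least 10, no overlap and the same call under 4 scalings, the 2 most abundant genes never called, the genes whose difference changed most and least with HS, and the ends of the longest runs. LOC_Os07g39350, the runs under all 4 scalings, the neighbour comparison and the stretch of identifiers with the most calls were chosen after values were seen. The members and lists were chosen with earlier results of these data known. For genes picked by the size of their difference or of its change, the p-values are descriptive only. Function lists were planned but not used, since no identifiers matched a name in the reference table. Alternatives were other pseudocounts, filters, scalings, priors and thresholds, a replicate block, 1 fit of 12 libraries, and each replicate left out.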

Additional observations from a re-analysis of the deposited data

Results flagged for a closer look

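The number of genes whose cultivar difference changed between normal growth and HS was 7347, by limma's interaction term over 12 libraries. With the other scalings it was 6381 to 9232. The interaction was called for 40.5% of all genes tested, and for 3 of the 8 ends of the longest runs. It was called for 8 of 12 other genes given by identifier. These were LOC_Os02g35500, LOC_Os07g39350, the largest differences, the most abundant genes never called, and the genes whose difference changed most and least with HS. The last were picked by the size of that change, so the count of 8 is partly set by the choice of genes. The change in log2 difference, HS minus normal, was -9.13 for LOC_Os10g26940, whose order of cultivars was opposite in HS, and 8.93 for LOC_Os12g14440, whose difference was not called in HS. It was -2.75 for LOC_Os12g19381 and -1.84 for LOC_Os12g17600, 2 genes called under none of the 4 scalings in normal growth, whose direction there (LOC_Os12g19381) or size (LOC_Os12g17600) depends on the scaling. It was 2.98 for LOC_Os04g56405, 1.63 for LOC_Os11g47980, -1.24 for LOC_Os07g39360 and 1.19 for LOC_Os07g39350, whose differences of log2(FPKM + 1) kept their direction and became smaller. For LOC_Os11g47980 the FPKM fold did not shrink with them: its 93-11 values in HS lie under the pseudocount of 1, and Nip over 93-11 was 5000-fold in HS and 4210-fold in normal growth. Among the run ends the change was -1.85 for LOC_Os12g24580, -1.10 for LOC_Os12g25120 and -1.07 for LOC_Os12g02380. HS seedlings were also kept in less light, so heat and light cannot be told apart in these changes.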

How the results depend on the processing

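Of 307 values under alternatives, 285 kept their direction and their side of the threshold or, for numbers of genes, stayed within 1.5 times. Scaling mattered most. With libraries rescaled to a sum of 1000000, 2362 genes were higher and 1553 lower in 93-11, and the median log2 difference was 0.0237, of opposite sign to the -0.332 of the deposited values. With quantile normalization 1545 genes were lower and the median was -0.044, and with median-ratio scaling 2072 were higher, 1476 lower and the median was -0.00834. LOC_Os02g35500 turned to 0.109 and 0.0727 with a sum of 1000000 and median-ratio scaling, and LOC_Os12g19381 to 0.0984, 0.475 and 0.0623 with a sum of 1000000, quantile normalization and median-ratio scaling. The median was -0.374 with a pseudocount of 0.1 and -0.195 with no filter. With 1 FPKM asked in each of the 6 libraries 835 genes were higher. Among the genes this removed were 574 that reached 1 FPKM in 3 93-11 libraries and no Nip library, of which 379 had been called higher. In a test against a log2 difference of 1, 760 were higher and 1338 lower. Same-numbered libraries did not deviate together (correlations of deviations -0.002, 0.041 and 0.005), so the numbers do not pair the samples, and with a replicate block 1357 genes were higher and 2485 lower. Leaving out 1 replicate gave 1329 to 1380 higher and 2453 to 2526 lower genes. For genes with values under 1 in one cultivar, a filter of 1 in all 6 libraries left no value. Genes near 0 have little precision in FPKM, and their fold differences are approximate.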
